A study of Mus musculus with 64 samples.

Results

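Microglia isolated from the mouse hippocampus were compared between the labels Day and Night in the conditions Soci and Cogn, across every gene of the count table. The comparison held 16 of the 64 libraries of the series, chosen by their labels alone, with 8 labelled Day and 8 labelled Night and 4 libraries in each of the groups Day Soci, Day Cogn, Night Soci and Night Cogn. The mice were males of strain C57BL/6 by the labels and C57BL6/N by the study's methods, aged 9 to 10 weeks, kept on a reversed cycle with darkness during laboratory daytime. Microglia were freshly dissociated in the cold, cleared of myelin on Percoll and captured with magnetic beads against CD11b, at zeitgeber time 4 in the light phase and zeitgeber time 16 in the dark phase. The labels do not say which phase each name stands for. The methods of the study, read together with its supplementary material, place Day in the dark phase, when mice are active, and Night in the light phase, so "higher in Day" means higher in the dark phase here. What Soci and Cogn, and the control conditions Ctr0 and Ctr1, stand for is not given in the sources used here. The labels do not say whether replicates came from separate animals, so p-values measure the spread between these libraries.

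Microglia survey brain tissue, clear debris and respond to injury. In the molecular clock, a transcriptional loop that most cells of the body hold, BMAL1, the protein of Arntl, pairs with CLOCK to switch on the Period and Cryptochrome genes, the REV-ERB genes Nr1d1 and Nr1d2 and the transcription factors Dbp, Tef and Hlf through DNA motifs named E-boxes, and the Period and Cryptochrome proteins return to repress the pair. In nocturnal rodents body temperature and circulating glucocorticoid hormone rise around the start of the dark phase, and heat shock, cold-inducible and glucocorticoid-responsive genes are known to follow such signals.

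Day libraries held between 11.6 and 62.2 M counts and Night libraries between 13.7 and 84.5 M (M for mega), and 3 libraries (Night Soci 4, Night Cogn 4 and Day Cogn 4) held over 60 M each. The mean total was 22.5 ± 16.3 M in Day and 31.2 ± 27.6 M in Night (SD, n = 8; exact permutation test, 2-sided, p = 0.436). Genes with at least 1 count numbered 21280 ± 1076 in Day and 22670 ± 1409 in Night (exact permutation test, 2-sided, p = 0.0448, n = 8). The locus Gm26917, known to collect ribosomal RNA reads, took between 23.4% and 44.9% of a library, so the counts left for other genes were fewer than the totals. Levels below are CPM, the counts of a gene relative to its library total after TMM scaling, not divided by gene length.

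The markers of the labelled cell type were abundant. P2ry12, the purinergic receptor of resting microglia, stood between 1223 and 2401 CPM over all 16 libraries, and Tmem119, another marker of brain-resident microglia, between 844 and 1656 CPM. The 18 homeostatic microglia markers summed to between 17280 and 28490 CPM in a library. Markers of other cells were detected too. The 16 neuron markers summed to between 195 and 828 CPM and the 14 astrocyte markers to between 491 and 1166 CPM. Markers of the choroid plexus, the secretory epithelium that lies in the ventricle beside the hippocampus, summed to between 1272 and 4157 CPM in Night and between 37.1 and 1152 CPM in Day, and the phases did not overlap in this sum. Because these are bulk libraries, fewer cells of a type and less RNA per cell cannot be told apart.

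Between Day and Night 2810 of 15665 genes tested passed the adjusted threshold of 0.05 (17.9%), by the quasi-likelihood test of edgeR with Benjamini-Hochberg adjustment and the condition as a term. Of all genes tested 1186 (7.57%) were higher in Day and 1624 (10.4%) were lower. Changes over 2-fold were found in 452 of the genes past the threshold. In 214 genes (1.37%) every Day library lay above every Night library, and in 298 genes (1.90%) every Day library lay below. The median log2 change over all genes was -0.03. With library totals alone in place of TMM, that median moved to -0.21 and the split became 139 higher and 3634 lower, so directions of small changes depend on the scaling. In all that follows a change is Day relative to Night as a log2 fold change with its SE, and p-values are adjusted over all genes tested.

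Genes of the clock moved in both directions. Of 20 clock genes 19 were tested. In Day 8 rose and 2 fell (beside 7.57% of all genes higher and 10.4% lower), and 9 did not pass the threshold. Their median log2 change was 0.17, which became -0.00 with library totals alone. There 7 rose and 4 fell, beside 139 of 15665 genes higher and 3634 lower. The activator Arntl (GRCm38 chr7:113207465-113314126, plus strand) fell in Day. For Arntl the lowest, median and highest of the 8 levels were 11.6, 13.1 and 15.6 CPM in Day and 19.2, 21.9 and 26.9 CPM in Night, and no Day library reached the lowest Night library (log2 fold change -0.74 ± 0.0869, adjusted p = 5.71e-05). Its partner Clock stood at 58, 68 and 68.7 CPM (lowest, median, highest) in Day and 46, 62.1 and 73.9 CPM in Night, overlapping ranges (log2 fold change 0.09 ± 0.0861, adjusted p = 0.477). Npas2, a relative of Clock, did not pass the threshold either (log2 fold change -0.25 ± 0.224, adjusted p = 0.471).

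The repressors of the Period and Cryptochrome families rose in Day, except Cry2. The lowest, median and highest Per3 levels were 48.7, 61.7 and 70.3 CPM in Day against 22.4, 26.4 and 33.9 CPM in Night, without overlap, and the gene was 2.2-fold higher in Day (log2 fold change 1.14 ± 0.0985, adjusted p = 7.29e-06). Cry1 was 2.59-fold higher. Levels of Cry1, as lowest, median and highest, were 10.8, 12.2 and 14.8 CPM in Day and 3.35, 4.4 and 7.47 CPM in Night, again without overlap (log2 fold change 1.37 ± 0.131, adjusted p = 1.43e-05). Per2 spanned 17.8, 27.4 and 45.5 CPM in Day (lowest, median, highest) and 8.12, 11.2 and 22.8 CPM in Night. The Per2 ranges overlapped, through Night Cogn 1 at 22.8 CPM and Day Cogn 1 at 17.8 CPM (log2 fold change 1.22 ± 0.192, adjusted p = 4.78e-04). Per1, the Period gene that also responds to hormones and stress, reached 73.5 CPM in Night Cogn 3 against a Night median of 32.5 CPM, and its Day median was 63.4 CPM (log2 fold change 0.73 ± 0.178, adjusted p = 0.00938). Per1 lost its call with library totals alone (log2 change 0.52, adjusted p = 0.0739). Cry2 had a Day median of 19.9 CPM and a Night median of 14.9 CPM and missed the threshold (log2 fold change 0.38 ± 0.141, adjusted p = 0.0709), and without Night Cogn 1 it passed (0.50, adjusted p = 0.00817).

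The paired REV-ERB repressors moved in opposite directions. Nr1d1, which encodes REV-ERBα, was the clock gene that fell most. Across the libraries Nr1d1 measured 2.9, 3.93 and 7.86 CPM in Day and 5.3, 12.6 and 21 CPM in Night (lowest, median, highest), and the ranges overlapped (log2 fold change -1.48 ± 0.259, adjusted p = 9.75e-04). Nr1d2, which encodes REV-ERBβ, was 1.43-fold higher in Day. In the 8 Day libraries Nr1d2 stood at 42.4, 51.9 and 57.5 CPM (lowest, median, highest), and in the 8 Night libraries at 29.6, 34.7 and 43.1 CPM, with 1 Day library below the highest Night library (log2 fold change 0.51 ± 0.0816, adjusted p = 5.16e-04). The receptors Rora (log2 fold change 0.17 ± 0.0942, adjusted p = 0.224) and Rorb (log2 fold change -0.50 ± 0.241, adjusted p = 0.161), which act on the same DNA element as the REV-ERB proteins, did not pass.

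The PAR bZIP transcription factors, through which the clock drives other genes, all rose. Tef had a lowest, median and highest level of 75.2, 83.2 and 91.9 CPM in Day and 42.7, 53.2 and 57.2 CPM in Night, without overlap (log2 fold change 0.69 ± 0.0682, adjusted p = 1.43e-05). For Hlf the lowest, median and highest of the 8 levels were 21.5, 26.1 and 31.2 CPM in Day and 8.61, 11.9 and 16.1 CPM in Night, also without overlap, a 2.14-fold difference (log2 fold change 1.10 ± 0.107, adjusted p = 1.43e-05). Dbp was 1.52-fold higher, with 8.93, 11 and 13.8 CPM in Day and 5.68, 7.08 and 9.51 CPM in Night (lowest, median, highest), and 1 Night library lay inside the Day range (log2 fold change 0.60 ± 0.102, adjusted p = 7.90e-04). Nfil3, which competes for the same sites, did not pass (log2 fold change 0.14 ± 0.13, adjusted p = 0.487). Neither did the repressors Bhlhe40 (log2 fold change -0.28 ± 0.151, adjusted p = 0.208) and Bhlhe41 (log2 fold change 0.12 ± 0.0553, adjusted p = 0.159) or Ciart (log2 fold change 0.17 ± 0.179, adjusted p = 0.56).

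**Figure D1:**
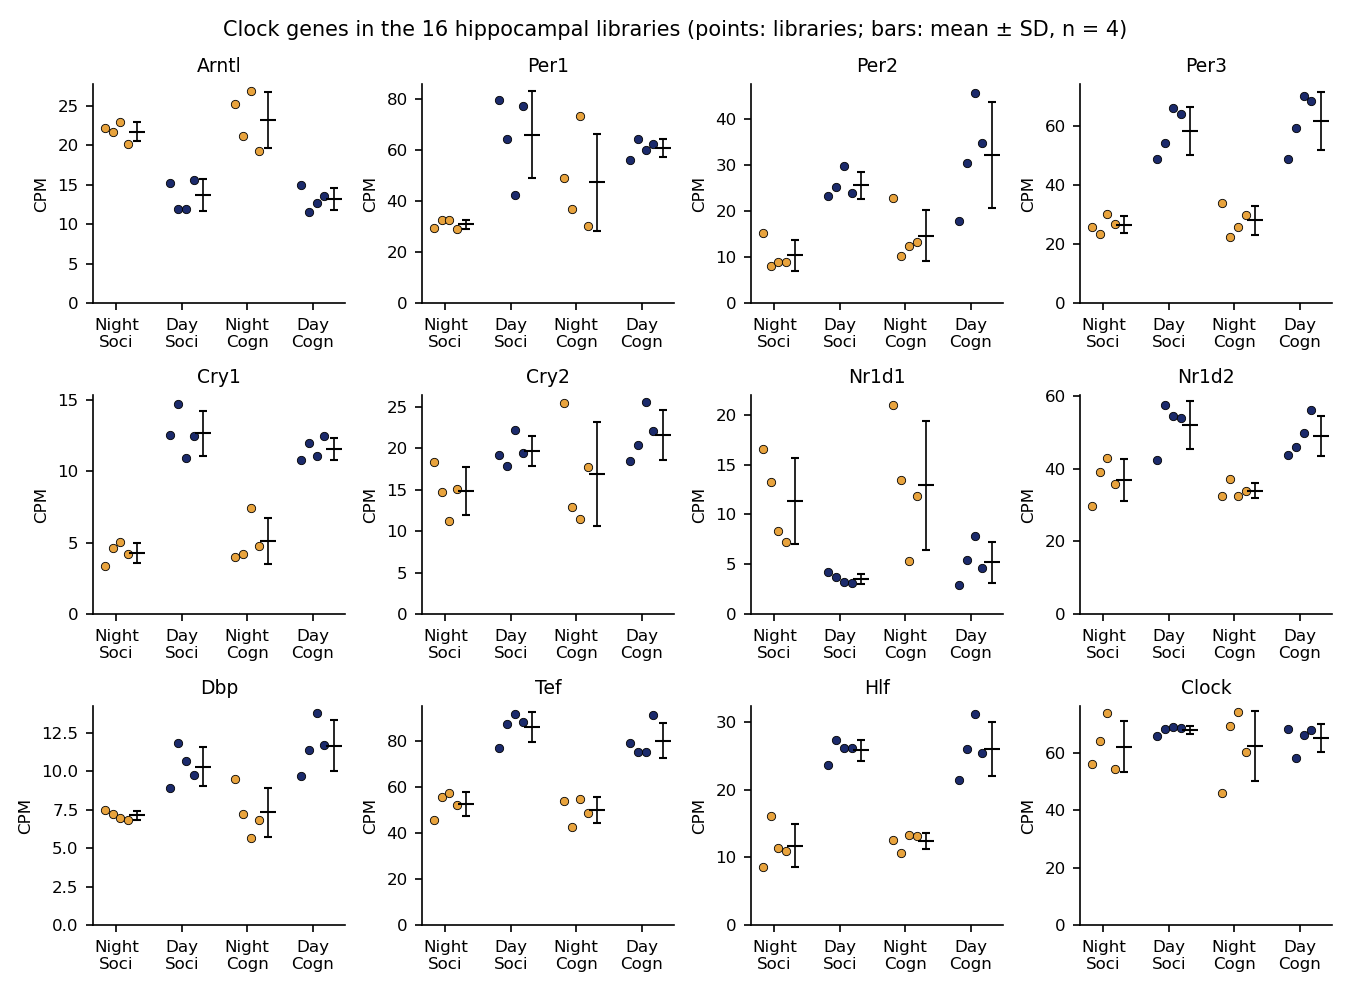
Levels of 12 clock genes in CPM (y axis, from 0) for the 4 groups (x axis), with a point for each library and the mean ± SD of its 4 libraries beside it. Per3, Cry1, Tef and Hlf stand higher and Arntl lower in every Day library than in any Night library, while Clock, Cry2, Per1, Per2, Nr1d1, Nr1d2 and Dbp overlap between the phases.

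The stretches before the start sites of these genes were read to show which clock motifs they hold. Those of 4 of them, chosen after their values were seen to show E-box, E′-box and D-box matches, are printed. The sequences are RefSeq's for GRCm38.p6, 5′ to 3′ on the strand of the gene, cut to 20 bases on either side of the matches within the 250 bases before the start. Capitals mark a match to the E-box CACGTG, to the E′-box CACGTT or its reverse complement, or to the D-box TTATGTAA, the element of Dbp, Tef and Hlf.
Cry1 (chr10:85185089-85185153, minus strand): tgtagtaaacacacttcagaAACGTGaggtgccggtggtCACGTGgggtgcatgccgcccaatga
Per3 (chr4:151044796-151044890, minus strand): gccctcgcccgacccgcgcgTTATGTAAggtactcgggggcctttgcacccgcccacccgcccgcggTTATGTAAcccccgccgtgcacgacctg
Tef (chr15:81802526-81802571, plus strand): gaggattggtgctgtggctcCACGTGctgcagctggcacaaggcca
Nr1d1 (chr11:98775380-98775425, minus strand): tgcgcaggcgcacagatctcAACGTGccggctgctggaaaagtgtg
The Cry1 stretch held an E′-box and an E-box, the Per3 stretch 2 D-boxes, the Tef stretch an E-box and the Nr1d1 stretch an E′-box. Of 17 tested clock genes with a RefSeq promoter, 5 (29.4%) held an E-box, beside 9.66% of the 10947 tested genes with a promoter and 6.86% of all 27018 genes of the promoter table. An E′-box stood in 4 of the 17 (23.5%), beside 5.26% of tested genes, and a D-box (TTATGTAA or TTACGTAA) in 1 of 17 (5.88%), beside 0.813%. The motifs TAGGTCA, named the ROR element, and TGACGTCA, named the CRE, were searched too and are not printed. Each stood in 1 of 17 (5.88%), in Nfil3 and in Hlf, beside 1.96% and 3.03% of tested genes. Genes higher in Day held an E-box in 10.3% of 931 promoters and genes lower in Day in 9.85% of 1238. Each motif was searched on both strands, a match describes letters and not a bound site, and promoters of Per2 were not in the table.

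Kinases and ubiquitin ligases that act on clock proteins, and genes of NAD metabolism, gave 1 rise and 3 falls among 13 tested, beside 7.57% higher and 10.4% lower of all genes. Prkaa2, a catalytic subunit of the energy sensor AMPK, fell (log2 fold change -1.29 ± 0.195, adjusted p = 3.95e-04), from a median of 5.19 CPM in Night to 1.82 CPM in Day. Fbxl21, a ubiquitin ligase subunit for cryptochromes, also fell, from a median of 1.17 CPM to 0.704 CPM (log2 fold change -0.74 ± 0.164, adjusted p = 0.00532). Btrc fell and Sirt1 rose.

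The day-night change of 1 gene differed from that of the control conditions. In the test of this difference against 16 hippocampal libraries of Ctr0 and Ctr1, 1 of 16826 genes (0.00594%) passed, and it was Dbp (difference of log2 changes 1.04 ± 0.169, adjusted p = 0.0192). On a scale set over the 32 libraries, Dbp stood at 6.65, 6.57, 6.34 and 6.21 CPM in Night Soci and at 8.49, 6.67, 5.22 and 6.24 CPM in Night Cogn. It stood at 13.6, 12.9, 11.5 and 11.2 CPM in Night Ctr0 and at 17.1, 12.7, 9.69 and 19 CPM in Night Ctr1. All 8 Night libraries of Soci and Cogn lay below all 8 Night control libraries. The Day levels were 8.38, 11, 9.79 and 9.21 CPM in Day Soci and 9.19, 10.8, 13 and 10.9 CPM in Day Cogn. They were 7.42, 12.2, 7.95 and 8.97 CPM in Day Ctr0 and 10.3, 11.8, 11.4 and 12.3 CPM in Day Ctr1, so Day levels overlapped. Dbp rose by 0.60 in Soci and Cogn and changed by -0.45 in the controls (adjusted p = 0.0161). The difference passed with DESeq2 and without the count filter, and it missed the threshold with library totals alone (adjusted p = 0.604) and without any 1 of the 4 replicate numbers (adjusted p from 0.0818 to 0.809).

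Hlf, Nr1d2 and Tef came next among the clock genes and did not pass. The difference of log2 changes was 0.77 ± 0.151 for Hlf (adjusted p = 0.0811) and 0.59 ± 0.116 for Nr1d2 (adjusted p = 0.0811). Nr1d2 changed by -0.09 in the control libraries (adjusted p = 0.38). In Night Soci and Night Cogn Tef stood between 39.4 and 52.3 CPM, and in the Night control libraries between 56.2 and 71.2 CPM, without overlap. DESeq2 called 23 genes in this comparison, with Hlf (0.79, adjusted p = 0.00225), Nr1d2 and Tef among them.

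**Figure D2:**
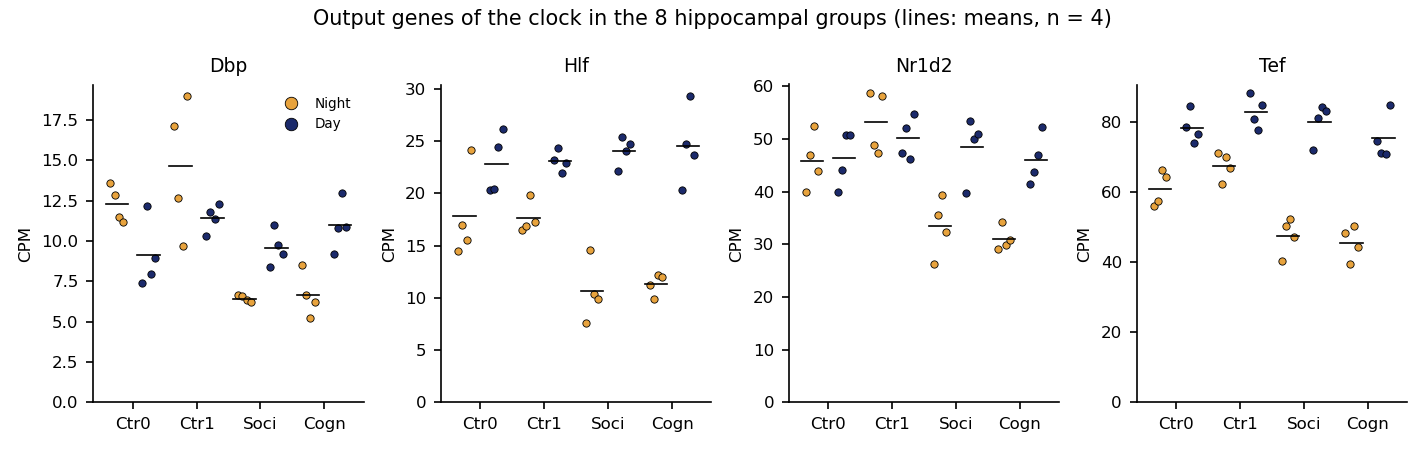
Levels of Dbp, Hlf, Nr1d2 and Tef in CPM (y axis, from 0) in the 8 hippocampal groups, with Night and Day side by side in each condition (x axis), a point for each library and a line at the mean of 4. In Night the Soci and Cogn libraries lie below the control libraries for Dbp, Nr1d2 and Tef, and in Day the conditions overlap.

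Heat shock proteins and their co-chaperones, which refold damaged proteins and are driven by heat shock factor, rose as a group. Of 14 tested 13 rose in Day and none fell (beside 7.57% of all genes higher), with a median log2 change of 0.78. In 7 of the 14 every Day library lay above every Night library, beside 1.37% of all genes. This list, like the others here, was chosen with earlier results of these data known. With library totals alone 11 of the 14 still rose, beside 139 of 15665 genes higher under that scaling. Hspa8, the constitutive Hsp70 chaperone (GRCm38 chr9:40800984-40810087, plus strand), was among those without overlap. The lowest, median and highest Hspa8 levels were 358, 455 and 694 CPM in Day against 158, 179.6 and 250.1 CPM in Night, a 2.61-fold difference without overlap (log2 fold change 1.39 ± 0.128, adjusted p = 1.43e-05). Levels of Hsp90ab1, as lowest, median and highest, were 279, 386 and 501 CPM in Day and 177, 201 and 215 CPM in Night, also without overlap, for this constitutive Hsp90 (log2 fold change 1.00 ± 0.0931, adjusted p = 1.43e-05). Hsph1 spanned 30.6, 36.7 and 48 CPM in Day (lowest, median, highest) and 11.9, 17 and 21.5 CPM in Night, where Hsph1 is the exchange factor of Hsp70 (log2 fold change 1.23 ± 0.116, adjusted p = 1.43e-05).

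Inducible members rose from low levels. Hspa1b, the stress-inducible Hsp70 that shares near-identical sequence with Hspa1a, had 0.877, 2.55 and 5.54 CPM in Day and 0.44, 0.64 and 1.19 CPM in Night (lowest, median, highest), and reads of the pair may be split between the copies (log2 fold change 2.12 ± 0.326, adjusted p = 4.11e-04). Hspb1, the small heat shock protein, was 2.07-fold higher (log2 fold change 1.05 ± 0.17, adjusted p = 5.83e-04). Hspd1 and Hspe1, the mitochondrial chaperonin and its cofactor, rose less, by 0.45 and 0.28. Hspa4 was the member that did not pass (log2 fold change 0.13 ± 0.0568, adjusted p = 0.133). P4ha1, a collagen prolyl hydroxylase outside the list, was among the most significant abundant genes. Across the libraries P4ha1 measured 158, 187 and 249.6 CPM in Day and 84.9, 102 and 118 CPM in Night (lowest, median, highest), without overlap (log2 fold change 0.93 ± 0.0915, adjusted p = 1.43e-05).

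Hspd1 and Hspe1 stand head to head and share 1 promoter region, shown here because it held the heat shock element among the chaperone promoters. In the RefSeq sequence of GRCm38.p6, capitals mark 2 overlapping matches to the heat shock element, which alternates GAA and TTC with 2 bases between them, searched on both strands.
Hspe1 (chr1:55088039-55088096, plus strand): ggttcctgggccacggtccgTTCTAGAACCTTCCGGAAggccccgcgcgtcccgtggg
The same bases serve as the match in the Hspd1 promoter on the other strand, so they are 1 sequence that counts for 2 of the 11 chaperone genes with a promoter (18.2%). The element stood in 0.484% of the promoters of tested genes, in 9 of 931 promoters (0.967%) of genes higher in Day and in 1 of 1238 (0.0808%) of genes lower in Day. For Hspa8 and Hsp90ab1 no promoter was in the table.

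Cirbp, the cold-inducible RNA-binding protein that rises when body temperature falls, moved the other way. In the 8 Day libraries Cirbp stood at 16.2, 20.6 and 23.1 CPM (lowest, median, highest), and in the 8 Night libraries at 28, 34 and 46.7 CPM, and all Day libraries lay below all Night libraries (log2 fold change -0.85 ± 0.098, adjusted p = 4.82e-05). Rbm3, its relative, had medians of 36.9 CPM in Day and 42.3 CPM in Night and did not pass (log2 fold change -0.26 ± 0.0967, adjusted p = 0.0757). Of 16 genes of the unfolded protein response 6 rose and none fell, by at most 0.44, with Herpud1 (log2 fold change 0.32 ± 0.0718, adjusted p = 0.006) and the chaperone Dnajb9 (log2 fold change 0.44 ± 0.105, adjusted p = 0.00817) leading. Both lost their calls with library totals alone, where none of the 16 passed and their median was -0.02. Immediate early genes, the first to respond to stimulation or to dissociation, gave 2 rises among 20 tested (beside 7.57% of all genes), namely Zfp36 (log2 fold change 0.37 ± 0.0771, adjusted p = 0.00322) and Klf6 (log2 fold change 0.36 ± 0.0894, adjusted p = 0.00956). With library totals alone neither group kept its direction, and 3 immediate early genes fell with none higher. Over all 15665 genes that scaling gave 139 higher and 3634 lower. Fos stood between 0.37 and 1.88 CPM in all 16 libraries.

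Glucocorticoid-responsive genes gave 6 rises and no fall among 16 tested (beside 7.57% of all genes higher), with a median log2 change of 0.52. In the Soci libraries alone 6 rose (beside 4.16% of all genes called in either direction), at a median of 0.70. In the Cogn libraries alone the median was 0.23, and the lowest adjusted p of the list was 0.0679, for Cdkn1a, with Zbtb16 at 0.0789 and Fkbp5 at 0.0805. No gene passed the test of the difference between Soci and Cogn. Fkbp5, a co-chaperone that the glucocorticoid receptor induces (GRCm38 chr17:28399094-28517527, minus strand), was 3.27-fold higher in Day. Fkbp5 had a lowest, median and highest level of 90.4, 147 and 173 CPM in Day and 29.1, 33.3 and 96.2 CPM in Night. The ranges met because Night Cogn 3 stood at 96.2 CPM and Day Cogn 3 at 90.4 CPM (log2 fold change 1.71 ± 0.233, adjusted p = 1.87e-04). Without these 2 libraries, an alternative chosen after their levels were seen, the change was 2.05 (adjusted p = 1.65e-06). Zbtb16, the transcription factor PLZF, did not overlap between the phases. For Zbtb16 the lowest, median and highest of the 8 levels were 58, 69.2 and 83.9 CPM in Day and 13.9, 18 and 52.5 CPM in Night (log2 fold change 1.60 ± 0.217, adjusted p = 1.82e-04). Tsc22d3, which encodes the glucocorticoid-induced leucine zipper, rose as well (log2 fold change 1.68 ± 0.279, adjusted p = 6.92e-04), with 71.7 CPM in its highest Night library against a Night median of 19.7 CPM. Sgk1, another classical target, did not pass (log2 fold change 0.27 ± 0.114, adjusted p = 0.104). In the control libraries 3 of these 16 genes rose and 4 fell, beside 27.7% of all genes called there in either direction. Their median there was 0.10, and no gene of the list passed the test of the difference.

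**Figure D3:**
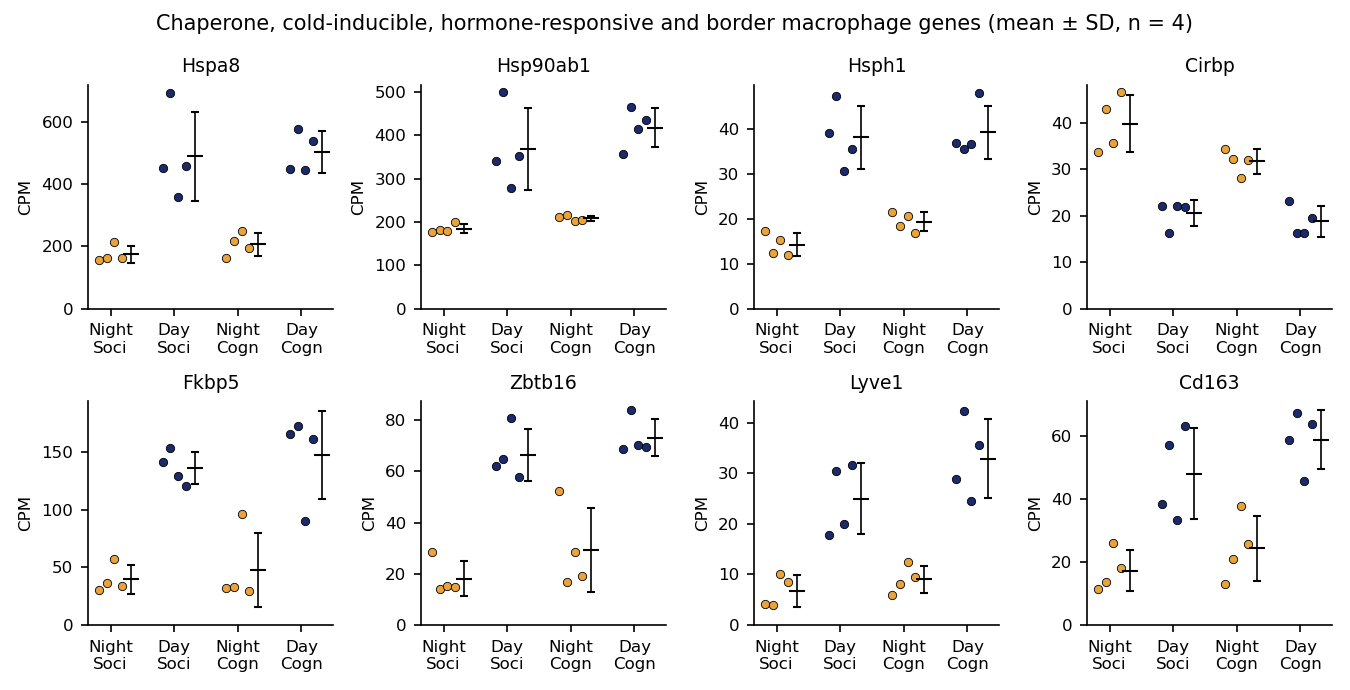
Levels of 8 genes in CPM (y axis, from 0) in the 4 groups (x axis), with a point for each library and the mean ± SD of 4 beside it. Hspa8, Hsp90ab1, Hsph1, Zbtb16 and Lyve1 are higher and Cirbp lower in every Day library than in any Night library, and for Fkbp5 single Cogn libraries lie at 96.2 CPM in Night and 90.4 CPM in Day.

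Among genes of microglial identity, 3 of 18 homeostatic markers rose and none fell (beside 7.57% of all genes higher), with a median log2 change of 0.18 that became -0.01 with library totals alone. The lowest, median and highest Tmem119 levels were 1046, 1273 and 1656 CPM in Day against 844, 879 and 1028 CPM in Night, without overlap (log2 fold change 0.53 ± 0.0937, adjusted p = 0.00104). Selplg, a selectin ligand, rose alike (log2 fold change 0.48 ± 0.0895, adjusted p = 0.00172), and the third was Slc2a5. P2ry12 did not pass (log2 fold change 0.25 ± 0.115, adjusted p = 0.145). Among 10 transcription factors of microglia 4 rose, with Cebpa (log2 fold change 0.50 ± 0.101, adjusted p = 0.00269) and Sall3 (log2 fold change 0.31 ± 0.0694, adjusted p = 0.00552) first. Smad3 fell by 0.15 (beside 10.4% of all genes lower). Library totals alone gave 1 rise and 1 fall among the 10, beside 139 of 15665 genes higher and 3634 lower. Among 16 markers of disease-associated microglia Lpl, lipoprotein lipase, was the 1 that passed, 6.25% of the list beside 10.4% of all genes lower. Levels of Lpl, as lowest, median and highest, were 3.91, 7.57 and 8.99 CPM in Day and 12.7, 16.5 and 18.3 CPM in Night, with all Day libraries below all Night libraries (log2 fold change -1.18 ± 0.126, adjusted p = 2.90e-05).

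Genes of surveillance and uptake gave rises in some members of each list. Of 12 purinergic receptors and ion channels 4 rose and none fell (beside 7.57% of all genes higher and 10.4% lower). Entpd1 spanned 607, 667 and 862 CPM in Day (lowest, median, highest) and 312, 429.8 and 478 CPM in Night, without overlap, for this enzyme that breaks down extracellular ATP (log2 fold change 0.75 ± 0.0949, adjusted p = 1.04e-04). Kcnj2, an inward rectifier potassium channel, rose without overlap too (log2 fold change 0.61 ± 0.0865, adjusted p = 2.29e-04). Of 16 phagocytosis genes 5 rose and Gas6 fell, with Itgb5 (log2 fold change 0.50 ± 0.0907, adjusted p = 0.00133) and the Fc receptor Fcgr3 (log2 fold change 0.51 ± 0.102, adjusted p = 0.00259) first. Of 12 complement genes 5 rose, among them C5ar2 (log2 fold change 0.35 ± 0.0742, adjusted p = 0.00364) and the 3 chains of C1q, and Cd55, which restrains complement, fell at a few CPM (log2 fold change -0.88 ± 0.197, adjusted p = 0.0057). These directions depended on the scaling, since library totals alone gave 2 rises and no falls among the purinergic genes, 1 rise and 3 falls among the phagocytosis genes and no rise and 1 fall among the complement genes. Over all 15665 genes that scaling gave 139 rises and 3634 falls.

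In innate immune pathways, 8 of 16 Toll-like receptor genes rose and none fell (beside 7.57% of all genes higher), with a median of 0.23. Library totals alone gave 3 rises and 4 falls among them, beside 139 of 15665 genes higher and 3634 lower. Tlr7, a sensor of single-stranded RNA, was 1.9-fold higher in Day, at 321, 368 and 466 CPM against 126, 187 and 323 CPM in Night (lowest, median, highest), with touching ranges (log2 fold change 0.93 ± 0.16, adjusted p = 8.81e-04). Tlr13, a sensor of bacterial ribosomal RNA, rose without overlap (log2 fold change 0.65 ± 0.116, adjusted p = 0.00109). Of 11 NF-kB genes 2 of the alternative branch, Relb and Nfkb2, fell and none rose (beside 10.4% of all genes lower). Across the libraries Relb measured 5.34, 5.67 and 7.47 CPM in Day and 8.88, 11.9 and 14.8 CPM in Night (lowest, median, highest), without overlap (log2 fold change -1.03 ± 0.0991, adjusted p = 1.43e-05). Nfkb2, the partner of Relb, fell without overlap as well (log2 fold change -0.35 ± 0.0761, adjusted p = 0.00423). Of 13 tested cytokines and chemokines Ccl9 alone rose (log2 fold change 0.38 ± 0.104, adjusted p = 0.0191), and Il1b stood at medians of 0.904 CPM in Day and 0.739 CPM in Night. Of 22 interferon-stimulated genes 1 rose, Ifit1 (log2 fold change 0.55 ± 0.177, adjusted p = 0.0406), and it lost its call without any 1 of 10 libraries (adjusted p from 0.0522 to 0.0843).

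Among genes of antigen presentation, 4 of 7 class II genes of the major histocompatibility complex rose (H2-Aa, H2-Ab1, H2-Eb1 and Cd74). Of all genes 7.57% were higher, and the median of the class II genes was 0.76. In the 8 Day libraries Cd74 stood at 33.9, 74 and 105 CPM (lowest, median, highest), and in the 8 Night libraries at 25.3, 40.0 and 54.7 CPM, overlapping ranges for this invariant chain (log2 fold change 0.83 ± 0.202, adjusted p = 0.00868). H2-Ab1 rose likewise (log2 fold change 0.80 ± 0.193, adjusted p = 0.0085). Of 9 class I genes B2m (log2 fold change 0.41 ± 0.11, adjusted p = 0.0166) and H2-D1 (log2 fold change 0.25 ± 0.0753, adjusted p = 0.0296) rose. With library totals alone none of the 9 rose and 1 fell, beside 139 of 15665 genes higher and 3634 lower. Class II genes are known from border macrophages more than from resting microglia, and markers of those macrophages rose in the same libraries. With the border macrophage score as a covariate none of the 7 class II genes passed and their median was -0.05. The same score left 160 genes past the threshold in all, and the part of these macrophages in the class II change was not tested.

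Some genes of lipid synthesis fell. Of 11 genes of fatty acid synthesis 7 fell and none rose (beside 10.4% of all genes lower), with a median of -0.35, and of 23 genes of cholesterol synthesis 7 fell and none rose, with a median of -0.31. Me1, which supplies NADPH, fell most (log2 fold change -1.46 ± 0.269, adjusted p = 0.00148), at 0.925, 1.53 and 2.1 CPM in Day and 2.37, 4.24 and 6.99 CPM in Night (lowest, median, highest). Elovl6 had a lowest, median and highest level of 1.3, 1.68 and 1.96 CPM in Day and 2.54, 3.04 and 3.89 CPM in Night, without overlap, for this fatty acid elongase (log2 fold change -0.84 ± 0.117, adjusted p = 2.04e-04). Srebf1, the master regulator of lipid synthesis, fell without overlap (log2 fold change -0.35 ± 0.0606, adjusted p = 9.28e-04). In the cholesterol pathway Mvk (log2 fold change -0.62 ± 0.126, adjusted p = 0.00294) and Fdft1 (log2 fold change -0.53 ± 0.102, adjusted p = 0.00209) fell at a few CPM.

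Glucose genes split. Of 18 tested 9 fell (beside 10.4% of all genes lower), including the glycolytic enzymes Pfkp, Pgk1, Tpi1 and Gapdh. The uptake genes Slc2a1 and Hk2 rose (beside 7.57% of all genes higher). For Slc2a1 the lowest, median and highest of the 8 levels were 231, 300.1 and 431 CPM in Day and 107, 161 and 203 CPM in Night, without overlap, for the glucose transporter GLUT1 (log2 fold change 0.95 ± 0.128, adjusted p = 1.87e-04). Hk2 rose without overlap as well (log2 fold change 0.37 ± 0.062, adjusted p = 7.22e-04). In the control libraries Slc2a1 changed by -0.23 (adjusted p = 0.422), and its difference from them, 1.16 ± 0.233, did not pass (adjusted p = 0.0811). Of 7 tested genes of the mitochondrial genome 3 fell, led by mt-Nd1 (log2 fold change -0.60 ± 0.168, adjusted p = 0.0215) and mt-Cytb (log2 fold change -0.47 ± 0.138, adjusted p = 0.0272).

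The next lists held calls in both directions or few calls, beside 7.57% of all genes higher and 10.4% lower. Among 16 antioxidant genes of the NRF2 pathway 3 rose and 3 fell. Hmox1, heme oxygenase, rose without overlap (log2 fold change 0.78 ± 0.133, adjusted p = 8.29e-04), and Nqo1 fell without overlap from a Night median of 1.86 CPM (log2 fold change -2.49 ± 0.345, adjusted p = 1.99e-04). Of 22 lysosomal genes Gaa (log2 fold change -0.34 ± 0.088, adjusted p = 0.0135) and Atp6v1a (log2 fold change -0.27 ± 0.0852, adjusted p = 0.0394) fell, 9.09% of the list and close to the share over all genes. Of 21 autophagy genes 4 rose, with Foxo3 (log2 fold change 0.35 ± 0.062, adjusted p = 9.92e-04) and Ulk2 (log2 fold change 0.29 ± 0.0687, adjusted p = 0.00807) first, and 3 fell. Of 17 cell cycle genes 4 rose, among them Cenpf (log2 fold change 0.88 ± 0.195, adjusted p = 0.0051), and 3 fell, all of the replication helicase, with Mcm2 first (log2 fold change -0.86 ± 0.114, adjusted p = 1.55e-04), while Mcm7 of the same helicase rose. Library totals alone gave 1 rise and 4 falls among the antioxidant genes, no rise and 6 falls among the autophagy genes and 1 rise and 3 falls among the cell cycle genes. Over all 15665 genes that scaling gave 139 rises and 3634 falls, so these falls lie near the share over all genes.

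**Figure D4:**
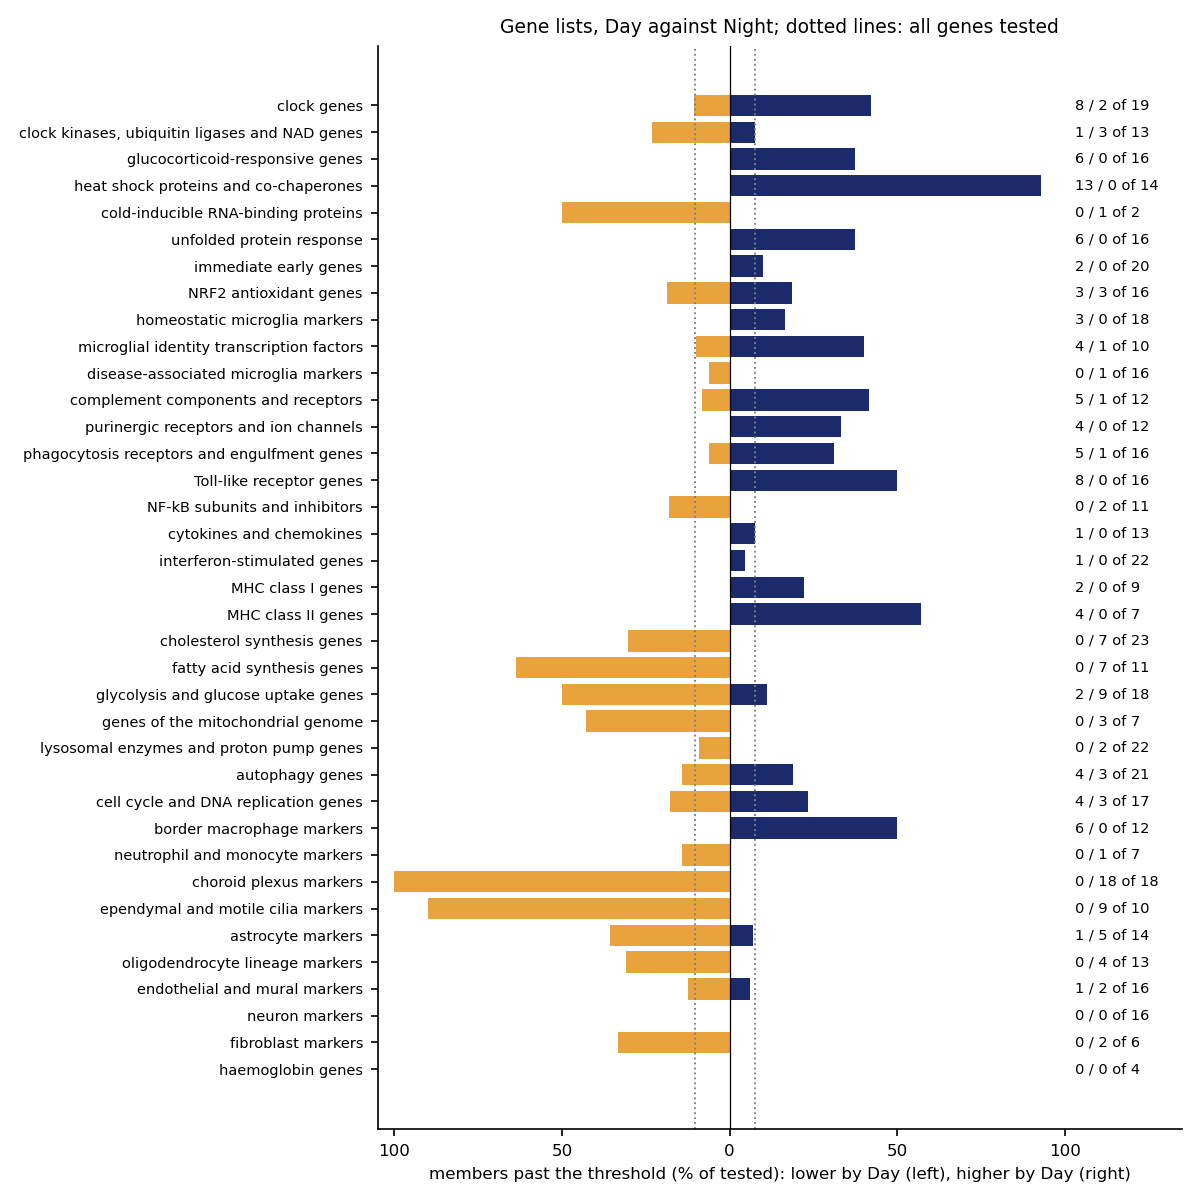
Share of the tested members of each of 37 gene lists that passed the threshold (x axis, in percent), lower in Day to the left and higher in Day to the right, with the counts at the side. Dotted lines mark the shares over all genes, 10.4% lower and 7.57% higher, and the chaperone list (13 of 14 higher) and the choroid plexus list (18 of 18 lower) reach farthest. The lists were chosen with earlier results of these data known.

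The largest falls were genes of the choroid plexus epithelium. All 18 choroid plexus markers fell in Day (beside 10.4% of all genes lower), with a median log2 change of -2.73. In 13 of them every Day library lay below every Night library, beside 1.90% of all genes. Ttr, transthyretin (GRCm38 chr18:20665280-20674321, plus strand), the protein this epithelium secretes in bulk, had 13.9, 147 and 594 CPM in Day and 620.5, 1408 and 1894 CPM in Night (lowest, median, highest), without overlap (log2 fold change -2.63 ± 0.63, adjusted p = 0.00824). The lowest, median and highest Enpp2 levels were 16.7, 116 and 396 CPM in Day against 467, 1117 and 1645 CPM in Night, without overlap, for the enzyme autotaxin (log2 fold change -2.73 ± 0.601, adjusted p = 0.00506). Levels of Kl, as lowest, median and highest, were 1.34, 11.3 and 41.9 CPM in Day and 55.3, 123 and 191 CPM in Night, without overlap, for the co-receptor Klotho (log2 fold change -2.90 ± 0.591, adjusted p = 0.00297). The 10 largest falls, taken from genes whose log2 CPM averaged 3 or more and whose Day library lay below the Night library of the same condition and number in all 8 cases, also held Vat1l (log2 fold change -2.95 ± 0.49, adjusted p = 6.92e-04), Psd2 (log2 fold change -2.89 ± 0.281, adjusted p = 1.43e-05), the clotting factor F5 (log2 fold change -2.80 ± 0.462, adjusted p = 6.64e-04) and the chloride channel protein Clic6 (log2 fold change -2.72 ± 0.562, adjusted p = 0.00325). Col9a3, Car12 and the serotonin receptor Htr2c were among them, at -2.58, -2.55 and -2.50. Slc4a5, a bicarbonate transporter of this epithelium, fell from a Night median of 18.1 CPM (log2 fold change -2.94 ± 0.495, adjusted p = 7.48e-04).

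Some markers of other cells moved too, set here beside 7.57% of all genes higher and 10.4% lower. Of 10 tested markers of ependymal cells and motile cilia 9 fell, with a median of -2.01, summing to between 9.88 and 24.3 CPM in Day and between 25.7 and 71.6 CPM in Night, without overlap. The dynein genes Dnah6 (log2 fold change -2.58 ± 0.311, adjusted p = 6.56e-05) and Dnah11 (log2 fold change -2.59 ± 0.39, adjusted p = 3.63e-04) led them. Of 14 astrocyte markers 5 fell, with Sox9 (log2 fold change -1.54 ± 0.216, adjusted p = 2.13e-04) first, and the glutamate transporter Slc1a3 rose without overlap (log2 fold change 0.58 ± 0.0695, adjusted p = 6.38e-05). Gfap fell (log2 fold change -1.04 ± 0.336, adjusted p = 0.0414). Of 13 oligodendrocyte lineage markers 4 fell, with Cspg4 (log2 fold change -1.16 ± 0.188, adjusted p = 6.07e-04) and Mag (log2 fold change -0.42 ± 0.095, adjusted p = 0.00556) first. Of 16 endothelial and mural markers 2 fell, Acta2 (log2 fold change -1.23 ± 0.147, adjusted p = 6.30e-05) and Pdgfrb (log2 fold change -0.62 ± 0.167, adjusted p = 0.0164), and Ly6c1 rose. These calls were 18.8% of the list, close to the 17.9% called over all genes.

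In edgeR 0 of 16 neuron markers passed, with 2 at an unadjusted p under 0.05, and DESeq2 called 1. Of 4 haemoglobin genes 0 passed in edgeR, with 0 at an unadjusted p under 0.05, and 0 in DESeq2. The neuron marker Slc17a7 had medians of 26.2 CPM in Day and 25.8 CPM in Night (log2 fold change -0.11 ± 0.253, adjusted p = 0.815). Of 6 fibroblast markers Igf2 (log2 fold change -1.44 ± 0.222, adjusted p = 4.11e-04) and Col3a1 (log2 fold change -0.68 ± 0.229, adjusted p = 0.0482) fell, beside 10.4% of all genes lower. Of 7 markers of neutrophils and monocytes Mmp9 fell (log2 fold change -1.18 ± 0.274, adjusted p = 0.00688), 14.3% of the list and near that share.

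Markers of border macrophages, the CD11b-positive macrophages of meninges, vessels and choroid plexus that the beads also capture, gave 6 rises and no fall among 12 tested (beside 7.57% of all genes higher), with a median of 0.44, and they summed to between 988 and 1576 CPM in Day and between 813 and 1182 CPM in Night, with overlap. Lyve1, a hyaluronan receptor, led them. Lyve1 spanned 17.7, 29.6 and 42.3 CPM in Day (lowest, median, highest) and 3.87, 8.32 and 12.5 CPM in Night, a 3.66-fold difference without overlap (log2 fold change 1.87 ± 0.212, adjusted p = 4.33e-05). Across the libraries Cd163 measured 33.3, 57.9 and 67.4 CPM in Day and 11.3, 19.6 and 37.8 CPM in Night (lowest, median, highest), for this haemoglobin scavenger receptor, with overlap (log2 fold change 1.37 ± 0.208, adjusted p = 3.95e-04). In the 8 Day libraries Mrc1 stood at 112, 189 and 227 CPM (lowest, median, highest), and in the 8 Night libraries at 60.3, 106 and 129 CPM, for the mannose receptor (log2 fold change 0.85 ± 0.183, adjusted p = 0.00428). Apart from these markers, the 10 largest rises by the same rule as the falls held Xdh, xanthine dehydrogenase (log2 fold change 1.24 ± 0.164, adjusted p = 1.55e-04), and Timp3, an inhibitor of metalloproteinases (log2 fold change 1.06 ± 0.144, adjusted p = 1.87e-04), and the receptor gene Notch4 was among the abundant genes of lowest p-value (log2 fold change 0.91 ± 0.0895, adjusted p = 1.43e-05). None of these 3 overlapped between the phases.

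**Figure D5:**
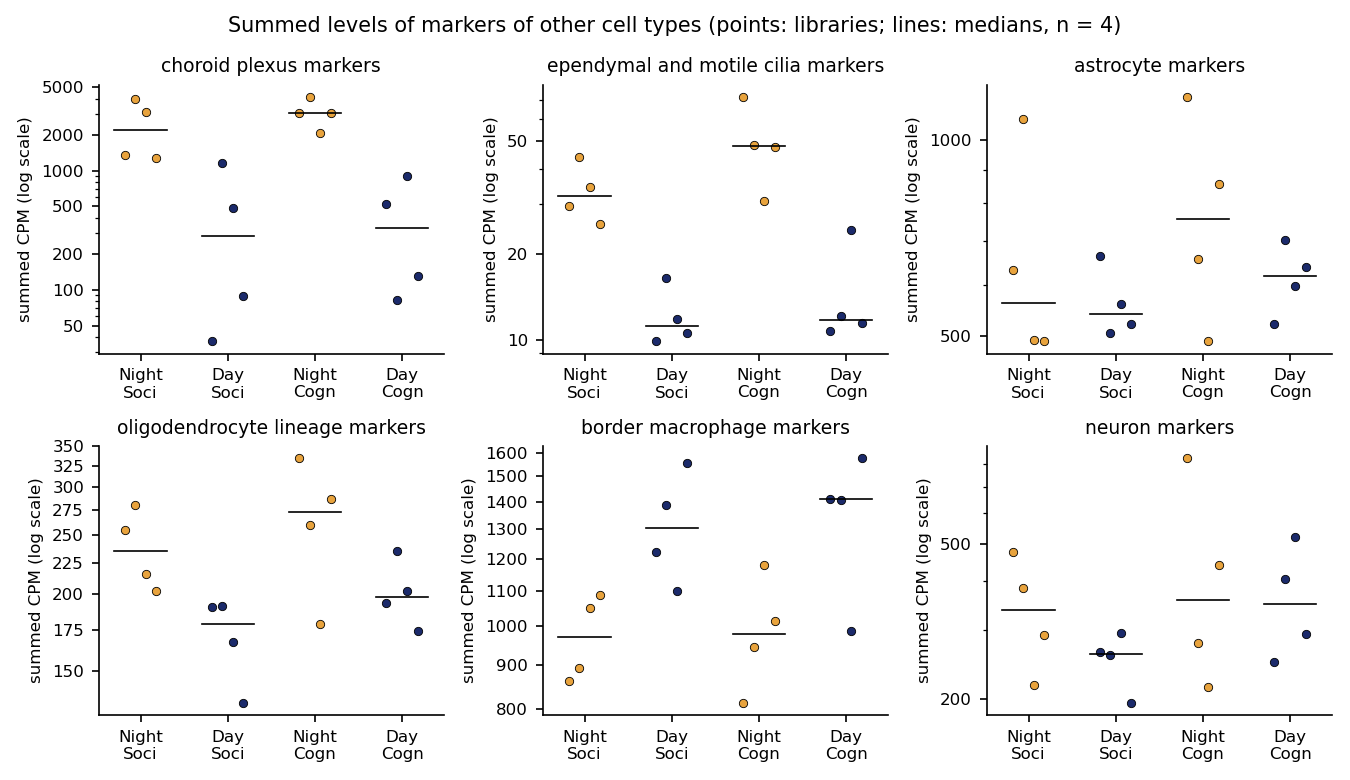
Summed CPM of 6 marker lists of other cell types (y axis, log scale) in the 4 groups (x axis), with a point for each library and a line at the median of 4. Choroid plexus sums lie between 1272 and 4157 CPM in Night and at most at 1152 CPM in Day, the cilia sums do not overlap either, and border macrophage sums are higher in Day with overlap.

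Because the choroid plexus and cilia sums separated the phases, the score of each marker list was entered as a covariate in turn. With the choroid plexus score 30 genes stayed past the threshold, and all 30 were among the 2810. Of them 21 were higher and 9 lower in Day. None of the choroid plexus markers remained, but the score is the mean of these same markers, so this outcome says nothing about them. Among the 30 were the clock genes Hlf (1.29, adjusted p = 0.00639), Per3 (1.16, adjusted p = 0.00739), Cry1 (1.37, adjusted p = 0.0132), Tef, Nr1d2 and Arntl (-0.88, adjusted p = 0.0258). The chaperone genes Hspa8 (1.47, adjusted p = 0.00739), Hsp90ab1, Hsp90aa1, Stip1, Hsph1, Dnajb1 and Hspd1 remained too, as did Cirbp (-0.94, adjusted p = 0.0456). With the ependymal and motile cilia score 13 genes stayed, among them Hlf, Per3, Dbp, Hspa8, Hsp90ab1, Hsp90aa1, Hsph1 and Stip1. Fmo2, a flavin monooxygenase named here after its values were seen, passed under both scores (2.44 and 2.48, adjusted p = 0.00143 and 0.00996). A score that follows the phase this closely also takes up the phase itself, and the part of these cell types in the change was not tested for any gene.

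Of the other scores, the border macrophage score left 160 genes, the oligodendrocyte lineage score 1347, the astrocyte score 1405, the endothelial and mural score 2144 and the neuron score 3549. For the heat shock proteins and co-chaperones 7 of 14 rose with the choroid plexus score and 5 with the border macrophage score. For the clock genes 5 rose and 1 fell with the choroid plexus score. For the glucocorticoid-responsive genes none passed with the choroid plexus score, at a median of 0.40, and 1 with the border macrophage score, at a median of 0.46. Over all 15665 genes 30 passed with the choroid plexus score and 160 with the border macrophage score. With so few genes passing, none or 1 of 16 says little about that list.

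In the frontal cortex libraries of Soci and Cogn, 16 libraries of the same conditions and phases, 3137 of 14918 genes (21.0%) passed between Day and Night. There the 10 choroid plexus markers tested had a median change of -0.00. All 14 chaperone genes rose in cortex with a median of 1.08, and 7 of 19 clock genes rose and 4 fell. Fkbp5 changed by 1.63, Cirbp by -0.88, Arntl by -0.77 and Lyve1 by 2.34 (adjusted p = 3.02e-04, 1.05e-04, 5.79e-04 and 9.78e-06). Of the 2810 hippocampal genes 2621 were tested in cortex, where 2538 (96.8%) had the same direction and 1520 also passed. These 1520 were 58.0% of the hippocampal genes tested in cortex and 48.8% of the cortical genes tested in hippocampus. The study's methods describe dissecting both regions from the brains, and the labels do not say whether libraries of both came from the same mice. The shared directions may thus not come from separate animals.

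The day-night change differed between the regions in 4 of 16753 genes (0.0239%), all with a more negative change in hippocampus. The test took the libraries of the regions as unpaired. Slc4a2, an anion exchanger also known from the basolateral side of choroid plexus cells, stood in hippocampal Night at 58, 83.4, 70.5 and 54.2 CPM in Soci and 89.8, 83.4, 63.7 and 72.6 CPM in Cogn. In hippocampal Day it stood at 47.7, 53.6, 46.5 and 48.4 CPM in Soci and 50.9, 48.5, 47.9 and 46.4 CPM in Cogn. All hippocampal Night libraries lay above all hippocampal Day libraries, and in cortex all 16 lay between 37.3 and 48.7 CPM (difference -0.69 ± 0.106, adjusted p = 0.00802). Cab39l, a scaffold of the kinase LKB1, overlapped between the phases in hippocampus, with 1 Night library among the Day libraries at 19.7 CPM and the others at 23.5 CPM or more (difference -1.32 ± 0.222, adjusted p = 0.0158).

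Trpv4, a cation channel opened by warmth and swelling, was among the 4 genes as well. Its hippocampal levels were 10.5, 16.7, 18.5 and 10.7 CPM in Night Soci and 21, 18.9, 18.7 and 17.5 CPM in Night Cogn. They were 17.6, 16.9, 16.6 and 17 CPM in Day Soci and 17.7, 18.8, 14.8 and 21.4 CPM in Day Cogn, with overlap. In cortex Night libraries reached at most 10.9 CPM and Day libraries at least 11.7 CPM (difference -1.09 ± 0.19, adjusted p = 0.0202). Ccdc170 was the fourth, at under 3 CPM in every library (-2.92 ± 0.524, adjusted p = 0.0223). None of the 4 passed without any 1 of the replicate numbers, where the adjusted p ran from 0.0537 to 0.512.

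In the hippocampal control libraries 4218 of 15236 genes (27.7%) passed between Day and Night. Of the 2810 genes called in Soci and Cogn 2752 were tested there, 2649 (96.3%) had the same direction and 1841 also passed, 66.9% of those tested and 43.7% of the control genes tested in Soci and Cogn. The 2 genes called in both in opposite directions, named after their values were seen, were Dbp and Lims2 (0.48 in Soci and Cogn and -0.64 in the controls). The choroid plexus markers fell in the control libraries too, 18 of 18 with a median of -2.49, and 12 of 14 chaperone genes rose.

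Between Soci and Cogn the day-night change did not differ detectably in any gene. In edgeR 0 of 16448 genes (0%) passed and 165 had an unadjusted p under 0.05, and in DESeq2 0 passed and 149 had an unadjusted p under 0.05. With 8 libraries each, 663 of 15926 genes (4.16%) passed in Soci alone and 245 of 15566 (1.57%) in Cogn alone. Of the 663 genes 657 were tested in Cogn, 655 with the same direction, and all 227 of the 245 that were tested in Soci had the same direction. The 123 genes called in both were 18.7% of the Soci genes tested in Cogn and 54.2% of the Cogn genes tested in Soci. Per1 rose by 1.11 in Soci (adjusted p = 0.0104) and by 0.37 in Cogn (adjusted p = 0.544), and the difference, 0.74 ± 0.314, did not pass (adjusted p = 1).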

How the data were processed

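Total RNA of isolated microglia was depleted of ribosomal RNA and sequenced as single-end reads. The authors deposited 1 table of raw counts per gene, whole numbers for 49671 Ensembl genes of GRCm38.p5 in 64 libraries, and the submitters' processing notes name STAR 2.7.3a and featureCounts of Subread 2.0.0. The strand and multimapping settings are not given in the sources used here, so reads of antisense, overlapping and near-identical genes cannot be told apart. Groups came from the titles. Symbols came from GENCODE M21, and 259 genes had none.

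Genes passing the edgeR filter (filterByExpr, minimum count 10) were scaled by TMM and tested with the quasi-likelihood test of edgeR 4.0.16 in R 4.3.3, with phase and condition as terms, Benjamini-Hochberg adjustment over all genes tested and a threshold of 0.05. The difference in change between Soci and Cogn was tested as an interaction term. The differences from the controls and from the cortex were tested as contrasts of 8 group means over 32 libraries. SEs were obtained from each log2 fold change and its F statistic. Log2 CPM used a prior count of 2. DESeq2 1.42.0, other scalings and filters, a replicate block, left-out libraries and marker scores as covariates were the alternatives. The code was tested on simulated data. Library depth limits the precision of low counts, and all intervals concern the spread between libraries.

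Named genes were all tested clock genes, the 10 largest rises and falls at a mean log2 CPM of at least 3 with the same sign in all 8 same-number pairs, the 5 of lowest p at a mean log2 CPM of at least 6, the 2 of lowest p per further list, 6 defining markers, and the 3 of lowest p at a mean log2 CPM of at least 2 per difference test; predicted and Rik symbols were left out of the ranked sets. Other genes are named to describe a list or difference and were chosen after their values were seen. The members and the 37 lists were chosen with earlier results of these data known. Promoters were RefSeq's for GRCm38.p6, found for 10947 of the genes tested. Circular RNA data were not analysed here. Some list members are counted but not reported by name here.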

Additional observations from a re-analysis of the deposited data

Results flagged for a closer look

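Among groups of 4 libraries, 120 groups over 30 measures were examined for a library whose gap to the others exceeded Dixon's critical value. Such a library was found in 15, where chance gives about 1 in 20 groups, or 6. The total was 84.5 M in Night Soci 4, 65.7 M in Night Cogn 4 and 62.2 M in Day Cogn 4, where the other libraries of these groups held at most 20.1 M. In the same 3 libraries the ribosomal locus Gm23935 took 3.78%, 3.07% and 3.19% of counts, against at most 0.524% in the other libraries of these groups. In Day Soci, where no library was that deep, Gm23935 took 1.95% in Day Soci 4 and at most 0.799% in the other libraries, so the share was highest in the library numbered 4 in each of the 4 groups.

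Single libraries also stood apart in genes and markers. Fkbp5 was at 96.2 CPM in Night Cogn 3 (others at most 32.9 CPM) and at 90.4 CPM in Day Cogn 3 (others at least 161 CPM), and the summed ependymal and motile cilia markers reached 24.3 CPM in Day Cogn 3. Per2 was at 15.3 CPM and Zbtb16 at 28.4 CPM in Night Soci 1, each above the other 3 libraries of the group. Zbtb16 was at 83.9 CPM in Day Cogn 2, Hspa8 at 215 CPM in Night Soci 3 and Tmem119 at 1028 CPM in Night Soci 4, each the highest of its group. Cirbp was at 16.3 CPM in Day Soci 2, the lowest of its group.

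The day-night change of Dbp exceeded that in the control conditions by 1.04 on the log2 scale (edgeR, adjusted p = 0.0192). Against the frontal cortex, the change in hippocampus differed by -0.69 for Slc4a2, -1.32 for Cab39l, -1.09 for Trpv4 and -2.92 for Ccdc170 (edgeR, adjusted p from 0.00802 to 0.0223).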

How the results depend on the processing

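The 2810 genes changed to 663 in the Soci libraries alone and 245 in the Cogn libraries alone, 1568 without the 3 libraries over 60 M (chosen after seeing the data), 30 with the choroid plexus score as a covariate, 13 with the ependymal and motile cilia score, 160 with the border macrophage score, 1405 with the astrocyte score and 1347 with the oligodendrocyte lineage score. Leaving out 1 of the 4 replicate numbers gave 1132 to 4522 genes (1478, 1132, 4522 and 1209 without numbers 1 to 4), and leaving out 1 library 2227 to 3969. The smaller fits hold fewer libraries. For the other changes the cause was not tested. None of the genes called in both the reported fit and an alternative had opposite directions. No count filter, a stricter filter, other scalings, DESeq2 (3416) and no condition term stayed within 1.5 times of 2810, but library totals alone gave 139 higher and 3634 lower.

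The difference from the controls held 0 genes with library totals alone, 23 in DESeq2, 4 without the count filter, 2 with the replicate block (Dbp and Nr1d2) and 0 to 0 without any one replicate number. The difference from the cortex held 15, 63 and 7 genes under the first 3 of these and 0 to 0 without any one number. The controls' 4218 genes became 2147 with library totals alone and 1636 to 4310 without a number, and the cortex's 3137 genes 964 to 4168 without a number. The difference in library total, Day against Night, was -8.66 M, and it ran from -12.3 to 1.18 M without a number and turned without replicate 4.

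The replicate block gave 3393 genes, 2738 of them among the 2810. Same-number libraries correlated from -0.6 to 0.867 in their deviations from the group means, with 11 of 24 over 0.1. The reported fit has no block because the study's methods name none. Even so, 11 of 16 libraries correlated best with their own number, a hint of structure shared within numbers.

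Of 104 named genes 92 were past the threshold, 86 of them without any one library and 68 without any one replicate number. Ifit1, H2-D1, mt-Cytb, Atp6v1a, Col3a1 and Gfap lost the call when single libraries were left out, of either phase and either condition, at an adjusted p of at most 0.103. The log2 changes below turned direction. With library totals alone the values were Clock -0.10, Rora -0.0078, Nfil3 -0.032, Bhlhe41 -0.073, Ciart -0.0042 and Trpv4 -0.12. With the border macrophage score the values were Clock -0.029, Npas2 0.40, Bhlhe40 0.094, H2-Ab1 -0.020, Cd74 -0.030, Slc17a7 0.66 and Gfap 0.10. With the astrocyte score the values were Clock -0.014, Npas2 0.13, Rorb 0.026 and Slc17a7 0.35. With the oligodendrocyte lineage score the values were Clock -0.039, Npas2 0.33 and Slc17a7 0.59. With the ependymal and motile cilia score the values were Npas2 0.41, Bhlhe40 0.24, Enpp2 0.15, Clic6 0.094, Ttr 0.42, Car12 0.021, mt-Nd1 0.0085, mt-Cytb 0.069, Gaa 0.0053, Atp6v1a 0.033, Slc17a7 0.58 and Gfap 0.071. In the Cogn libraries alone the values were Nfil3 -0.14, Slc17a7 0.011 and Trpv4 -0.086. With the choroid plexus score the values were Enpp2 0.010, Clic6 0.13 and Ttr 0.21, all members of that score, so these values say nothing about their change. With the endothelial and mural score the value was Slc17a7 0.017. With the neuron score the value was Slc17a7 0.19. Without the 3 libraries over 60 M the value was Trpv4 -0.049. Leaving out a library or number gave Npas2 -0.60 to 0.066, Ciart -0.055 to 0.28, Slc17a7 -0.45 to 0.30 and Trpv4 -0.056 to 0.19.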
